A study of Arabidopsis thaliana with 12 samples.

Results

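The LITTLE ZIPPER (ZPR) genes and the class III homeodomain-leucine zipper (HD-ZIP III) genes of Arabidopsis thaliana are described here across 3 genotypes of whole seedlings. The members were taken by gene identifier: ZPR1 (AT2G45450), ZPR2 (AT3G60890), ZPR3 (AT3G52770), ZPR4 (AT2G36307), REV (AT5G60690), PHB (AT2G34710), PHV (AT1G30490), CNA (AT1G52150) and HB8 (AT4G32880), which are 9 of the 37885 genes counted. RNAseq of poly(A) RNA was made from untreated 7-day-old total seedlings grown in continuous light on 1/2 MS agar without sucrose, with 4 biological replicates of each genotype. The prt6-1erfvii seedlings combine the prt6-1 mutation with mutant alleles, from T-DNA insertion lines, of all 5 ERFVII genes (HRE1 and HRE2, with RAP2.2, RAP2.3 and RAP2.12). The prt6-1 seedlings carry the prt6-1 mutation of PRT6, which encodes an E3 ubiquitin ligase, with no ERFVII mutation, and Col-0 is the wild-type accession. No group with mutant ERFVII genes and wild-type PRT6 was analysed here. By the labels, prt6-1erfvii vs prt6-1 sets the ERFVII alleles against intact ERFVII genes in a prt6-1 background. PRT6 counts, at 165 to 290 in prt6-1erfvii and 1219 to 2162 in prt6-1, also differed in that comparison, beside the ERFVII alleles. The comparison of prt6-1erfvii with Col-0 combines both kinds of mutation.

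HD-ZIP III proteins are transcription factors with a homeodomain, a leucine zipper through which they form dimers, and a START domain; they set the upper side of leaves, maintain the shoot apical meristem and pattern the vascular tissue. Their mRNAs are cleaved under the guidance of miR165 and miR166. ZPR proteins are little more than a leucine zipper, pair with HD-ZIP III proteins into dimers that cannot bind DNA, and are themselves encoded by genes that HD-ZIP III proteins activate, which closes a negative feedback loop. ZPR2 begins with Met-Cys and is a substrate of the oxygen-dependent N-degron pathway, in which plant cysteine oxidases oxidise the cysteine and PRT6 marks the protein for degradation; the protein is known for accumulating in the hypoxic niche of the shoot apex.

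The start of the coding sequence shows what sets ZPR2 apart from the other ZPR genes. The first 30 bases of each ZPR coding sequence that RefSeq annotates in TAIR10.1 follow, 5′ to 3′ on the coding strand, with the second codon in capitals.
ZPR1: atgCAAagggaacacaaaactcacaacaaa
ZPR2: atgTGTctgacaacttcagagccaccattc
ZPR3: atgGAGaggctaaactcgaagctgtttgtt
TGT in ZPR2 is a cysteine codon, and all 3 annotated ZPR2 transcripts share this start. These stretches lie on the minus strand at chr2:18734029-18734058 for ZPR1, chr3:22497413-22497442 for ZPR2 and chr3:19558065-19558094 for ZPR3. ZPR4, at chr2:15218040-15219415 on the minus strand, is annotated there as a non-coding RNA without a coding sequence, and none of the other 7 members with a coding sequence has a cysteine codon in second place.

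The second set of sequences is the miRNA site that the HD-ZIP III mRNAs share. The mature miRNAs are shown first, with the seed (bases 2 to 8) in capitals.
miR165a-3p: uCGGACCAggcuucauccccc
miR166a-3p: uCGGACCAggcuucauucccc
The seed is the same in both; 2 miR165 loci carry the first sequence and 7 miR166 loci the second, and the ones printed come from chr1:78932-78952 on the minus strand and chr2:19176241-19176261 on the plus strand. The best match in each HD-ZIP III mRNA follows, 5′ to 3′ as DNA, with capitals where the base is not the complement (A to U, G to C) of miR165a-3p.
REV: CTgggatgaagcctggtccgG
PHB: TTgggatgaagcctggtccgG
PHV: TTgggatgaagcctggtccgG
CNA: CTggAatgaagcctggtccgG
HB8: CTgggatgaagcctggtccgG
All 5 sites lie in the coding sequence and are split by an intron of 82 to 116 bp, so that on the genome they span chr5:24398787-24398898 (REV, plus strand), chr2:14642530-14642666 (PHB), chr1:10799330-10799445 (PHV), chr1:19412976-19413085 (CNA) and chr4:15866872-15866974 (HB8), the last 4 on the minus strand. Written as the complementary base, its position from the miRNA's 5′ end and the base in the mRNA, the mismatches with miR165a-3p were A1G, G20T and G21C in REV and HB8, A1G, G20T and G21T in PHB and PHV, and A1G, G17A, G20T and G21C in CNA. With miR166a-3p, CNA had 3 mismatches, where the other HD-ZIP III mRNAs had 4, A17G among them. A1G and A17G set G opposite U, which can form a wobble pair, and were counted as mismatches. No ZPR transcript came near such a site, the best matches having 8 to 10 mismatches.

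The libraries held 23156637 to 30582461 counts on genes, so that 3 counts correspond to 0.100 to 0.131 CPM, the count scaled to library size. PRT6 transcripts had 272, 216, 165 and 290 counts in prt6-1erfvii, 2030, 1535, 2162 and 1219 counts in the libraries labelled prt6-1, and 1438, 1647, 1674 and 1423 counts in Col-0. The PRT6 counts thus do not set the libraries labelled prt6-1 apart from Col-0, and prt6-1 below stands for the libraries labelled so. HRE2 did set them apart, with 57 to 88 counts in prt6-1 and 7 to 32 in Col-0. Its log2 fold change was 1.94 (SE 0.32), with an adjusted p of 0.0015 in the quasi-likelihood test of edgeR (Benjamini-Hochberg). Neither PRT6 nor another ERFVII gene was called in that comparison by edgeR. HRE1 libraries did not overlap, with 137 to 162 counts in prt6-1 and 90 to 109 in Col-0. The HRE1 difference was 0.47 (SE 0.14), with an adjusted p of 0.0952 in the same edgeR test. RAP2.3 was at -0.32 (SE 0.10), with an adjusted p of 0.149 in edgeR and 0.0489 in DESeq2. Of the 5 mutated ERFVII genes, HRE1 was at 0 in every prt6-1erfvii library, HRE2 at no more than 2 counts and RAP2.3 at 10 to 22 counts. RAP2.12 kept 1191 to 1535 counts and RAP2.2 kept 1314 to 1830 counts in prt6-1erfvii, which is 0.525-fold and 0.540-fold the prt6-1 level; gene-level counts do not show whether these transcripts are complete. Replicate 4 of the libraries labelled prt6-1 had lower values for longer genes, with r = -0.29 across genes between log2 length and its deviation from the mean of the 12 libraries, against -0.09 to 0.18 in the other 11; genes are not independent replicates. WUS and CLV3, which define the stem cell centre of the shoot apex, had at most 1 and at most 8 counts in any library, so the defining markers of the niche in which ZPR2 is best known are at or near 0 in these whole seedlings. CNA lies 720.1 kb from the mutated RAP2.12 locus and ZPR1 lies 768.4 kb from HRE2, the shortest distances of a member to a mutated gene on its chromosome.

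Levels per length order the members. In RPKM, the CPM divided by the exon length in kilobases, prt6-1erfvii seedlings had PHB first at 15.7, followed by REV at 9.71, CNA at 9.56, PHV at 9.34, HB8 at 7.57 and ZPR1 at 7.20. ZPR4 at 2.39, ZPR3 at 1.39 and ZPR2 at 0.450 RPKM closed the order. Neighbours whose libraries overlapped were REV and CNA, CNA and PHV, and HB8 and ZPR1.

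The libraries labelled prt6-1 had PHB at 16.2, REV at 13.1, CNA at 12.8, PHV at 10.9 and HB8 at 9.89 RPKM, with ZPR1 at 6.87 RPKM below them. In Col-0, PHB had 15.9, CNA 13.4, REV 13.1, PHV 11.4, HB8 10.2 RPKM, with ZPR1 libraries at 8.56 to 9.38 RPKM. PHB was therefore the most abundant and ZPR2 the least abundant member per length in each genotype. ZPR2 had 0.669 RPKM in the libraries labelled prt6-1 and 0.729 RPKM in Col-0, where its range overlapped that of ZPR3. Divided by the longest transcript instead of all exons, the ZPR2 values were 0.536, 0.796 and 0.868 RPKM in prt6-1erfvii, prt6-1 and Col-0.

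ZPR1 was the main LITTLE ZIPPER transcript. It made up 61.8 to 64.3% of the summed ZPR level per length in prt6-1erfvii, 54.1 to 61.4% in prt6-1 and 61.1 to 66.3% in Col-0. ZPR2 made up at most 6.01% in prt6-1erfvii, 7.24% in prt6-1 and 6.33% in Col-0, so the N-degron substrate was a minor part of the ZPR transcripts of whole seedlings. The summed ZPR level was 19.7 to 25.5% of the summed HD-ZIP III level in prt6-1erfvii, 16.0 to 22.3% in prt6-1 and 20.5 to 23.2% in Col-0, and these ranges overlapped.

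No member passed the test between prt6-1 and Col-0, while 3 HD-ZIP III genes were lower in prt6-1erfvii than in prt6-1 and 4 HD-ZIP III genes with ZPR1 were lower in prt6-1erfvii than in Col-0. A member was called at an adjusted p under 0.05 in the quasi-likelihood test of edgeR (Benjamini-Hochberg) over all genes, and all 9 members passed the filter on low counts in each comparison. In prt6-1 vs Col-0, 0 of 9 members were called, where 2.18% of the 20899 genes tested were, 1.09% higher and 1.09% lower; at an unadjusted p under 0.05 there was 1 member, ZPR1, and 2620 genes in all, and DESeq2 called the same member among 679 genes. In prt6-1erfvii vs prt6-1, 3 of 9 members were called (REV, CNA and HB8), all lower, beside 31.3% of 20857 genes called in either direction and 14.7% called lower. In prt6-1erfvii vs Col-0, 5 of 9 were called (ZPR1, REV, PHV, CNA and HB8), all lower, beside 37.2% of 20747 genes in either direction and 18.7% lower. Libraries did not overlap for 1 member (ZPR1, lower) in prt6-1 vs Col-0, beside 7.76% of all genes tested (3.57% higher and 4.18% lower). They did not overlap for 3 members in prt6-1erfvii vs prt6-1 and 6 in prt6-1erfvii vs Col-0, all lower, beside 31.2% and 34.8% of all genes in either direction. The median log2 fold change of the 9 members was -0.04, -0.37 and -0.34 in these comparisons, where that of all genes tested was 0.0022, 0.00088 and -0.0090. The 3 comparisons share libraries, so that each genotype enters 2 of them.

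**Figure D1:**
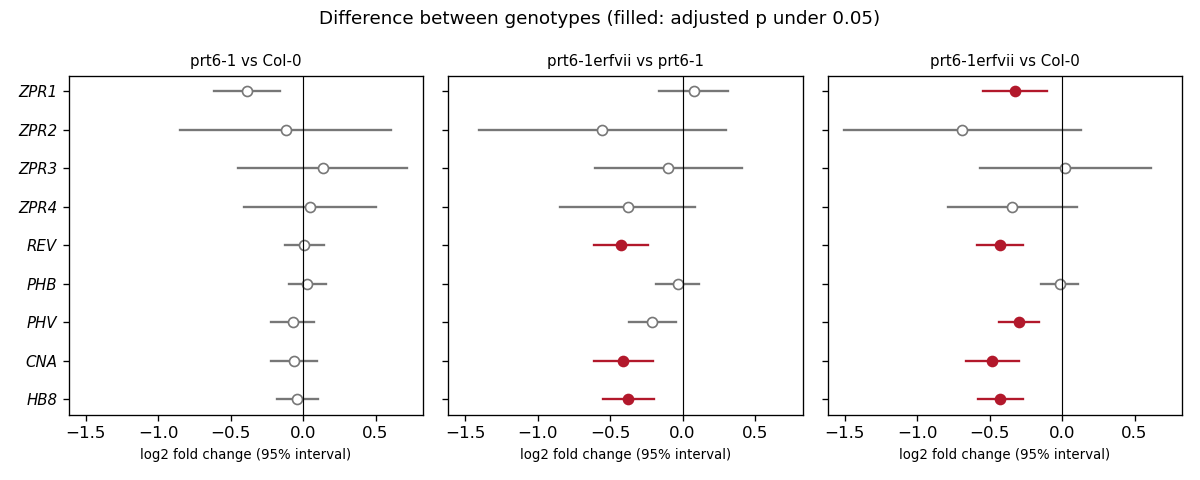
Log2 fold change of each member (x axis) in the 3 comparisons, with its 95% interval; positive values mean higher in the first genotype named, and filled red points have an adjusted p under 0.05 in edgeR's quasi-likelihood test. No point is filled for prt6-1 vs Col-0, 3 are for prt6-1erfvii vs prt6-1 and 5 for prt6-1erfvii vs Col-0, all left of 0.

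ZPR1, the ZPR gene with the most counts, had 6.68, 7.46, 6.87 and 6.85 CPM in prt6-1erfvii, 6.45, 6.15, 7.03 and 6.95 CPM in prt6-1, and 8.28, 8.86, 9.07 and 8.58 CPM in Col-0. Every Col-0 library lay above every library of the other genotypes, which overlapped each other. It was lower in prt6-1erfvii than in Col-0 by a log2 fold change of -0.32 (SE 0.11), or 0.799-fold, with an adjusted p of 0.0197 in the quasi-likelihood test of edgeR (Benjamini-Hochberg). That call was lost with an offset for GC content and gene length (-0.24, adjusted p = 0.0887 by the same edgeR test) and without Col-0 replicate 3 (0.0572), prt6-1erfvii replicate 1 (0.0521) or prt6-1erfvii replicate 4 (0.0531). For prt6-1 vs Col-0 the ZPR1 value was -0.39 (SE 0.11), which did not pass (edgeR, Benjamini-Hochberg adjusted p = 0.0708), although the libraries did not overlap. The same difference had an adjusted p of 0.0494 in DESeq2 and 0.0441 in edgeR without replicate 4 of the libraries labelled prt6-1. Between prt6-1erfvii and prt6-1 the ZPR1 difference was 0.08, with a 95% interval of -0.16 to 0.31. In these bulk samples, fewer cells of a type and less RNA per cell cannot be told apart.

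ZPR2, the N-degron substrate, had the fewest counts of the 9 members. There were 8, 6, 16 and 17 counts in prt6-1erfvii, 11, 19, 24 and 19 counts in prt6-1, and 19, 24, 15 and 15 counts in Col-0, which is 0.297, 0.257, 0.700 and 0.568 CPM, 0.399, 0.759, 0.848 and 0.703 CPM, and 0.828, 0.945, 0.584 and 0.593 CPM for the same libraries. The lowest libraries were prt6-1erfvii replicates 1 and 2, and each genotype overlapped the others. No difference of ZPR2 passed the test. The log2 fold change was -0.12 (95% interval -0.85 to 0.61) for prt6-1 vs Col-0, -0.55 (-1.41 to 0.30) for prt6-1erfvii vs prt6-1 and -0.69 (-1.50 to 0.13) for prt6-1erfvii vs Col-0. These intervals include no difference and, in the comparisons with prt6-1erfvii, also decreases of more than 1 log2 unit. No difference was thus detected, and in those comparisons a decrease of that size is not excluded.

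ZPR3, which encodes a shorter ZPR protein of 67 codons, had 1.30, 1.67, 1.36 and 1.27 CPM in prt6-1erfvii, 1.59, 1.16, 1.52 and 1.74 CPM in prt6-1, and 0.828, 2.01, 1.52 and 1.11 CPM in Col-0. Its 3 genotypes overlapped throughout, and the Col-0 libraries alone spanned the values of all others. Its log2 fold changes lay between -0.10 and 0.13, with intervals reaching about -0.60 to 0.72.

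ZPR4, the closest relative of ZPR3, had 1.74, 1.67, 1.66 and 1.67 CPM in prt6-1erfvii, 2.57, 1.48, 2.19 and 2.59 CPM in prt6-1, and 1.92, 2.05, 1.91 and 2.69 CPM in Col-0. All prt6-1erfvii libraries lay below all Col-0 libraries, while prt6-1 spanned both. The difference between prt6-1erfvii and Col-0 was -0.34 (SE 0.21) and did not pass edgeR's quasi-likelihood test (Benjamini-Hochberg adjusted p = 0.223). Against prt6-1 it was -0.38 (95% interval -0.84 to 0.09).

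**Figure D2:**
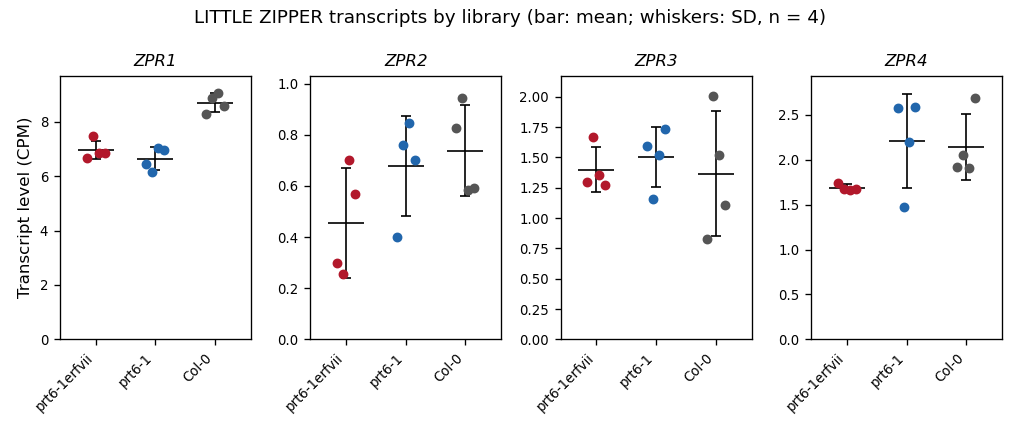
Transcript level in CPM (y axis, from 0, a separate scale for each gene) of the 4 ZPR genes in every library of prt6-1erfvii, prt6-1 and Col-0 (x axis), with the mean as a bar and the SD as whiskers (n = 4). The ZPR1 libraries of Col-0, at 8.28 to 9.07 CPM, lie above all others, and the ZPR2 libraries overlap between genotypes.

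Of the HD-ZIP III genes, REV, CNA and HB8 were called lower in both comparisons of prt6-1erfvii, PHV against Col-0 alone and PHB in neither. REV, which acts in leaf polarity, meristem formation and interfascicular fibre development, had 36.7, 39.0, 27.9 and 34.1 CPM in prt6-1erfvii, 43.7, 49.4, 48.1 and 44.9 CPM in prt6-1, and 47.3, 47.2, 45.5 and 45.2 CPM in Col-0. Every prt6-1erfvii library was below every other library, with replicate 3 the lowest, and prt6-1 overlapped Col-0. The log2 fold change was -0.42 (SE 0.09), or 0.746-fold, against prt6-1 and -0.43 (SE 0.08), or 0.743-fold, against Col-0 (edgeR's quasi-likelihood test, Benjamini-Hochberg adjusted p = 0.00127 and 0.000101). REV libraries of prt6-1erfvii did not overlap those of the other genotypes, as was so in the lower direction for 15.1% of genes against prt6-1 and 17.3% against Col-0. The 3′ end of REV (chr5:24396981-24402195, 18 exons) overlaps the gene AT5G60700 on the opposite strand by 67 bp; that gene had 347 to 514 counts, and no other member overlaps a gene.

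CNA, also called ATHB-15, restrains vascular growth and shares roles with PHB and PHV in the meristem. It had 39.2, 37.5, 27.5 and 34.3 CPM in prt6-1erfvii, 45.6, 49.6, 49.3 and 40.8 CPM in prt6-1, and 43.5, 48.6, 48.9 and 52.3 CPM in Col-0. All prt6-1erfvii libraries were below all others, and replicate 3 was again the lowest. CNA was lower by -0.41 (SE 0.10) against prt6-1 and by -0.48 (SE 0.09) against Col-0, with adjusted p = 0.00401 and 0.000230 in the quasi-likelihood test of edgeR (Benjamini-Hochberg).

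HB8, a marker of the earliest procambium, had 23.5, 26.9, 20.5 and 24.8 CPM in prt6-1erfvii, 32.0, 31.7, 32.1 and 29.2 CPM in prt6-1, and 32.4, 33.0, 30.1 and 33.1 CPM in Col-0. No prt6-1erfvii library reached the lowest library of another genotype. The fold changes were -0.37 (SE 0.08) against prt6-1 and -0.43 (SE 0.07) against Col-0 on the log2 scale, with adjusted p = 0.00207 and 8.54e-05 (edgeR quasi-likelihood test, Benjamini-Hochberg).

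PHV, the nearest paralog of PHB and a determinant of the upper leaf side, had 29.0, 32.0, 26.4 and 27.6 CPM in prt6-1erfvii, 33.0, 33.8, 36.2 and 30.8 CPM in prt6-1, and 36.4, 36.2, 34.4 and 33.9 CPM in Col-0. Its prt6-1erfvii libraries were all below Col-0, but replicate 2 overlapped prt6-1. PHV was lower against Col-0 by -0.29 (SE 0.07), with an adjusted p of 0.00116 in the quasi-likelihood test of edgeR (Benjamini-Hochberg). Against prt6-1 it was at -0.21 (SE 0.08) and just missed the threshold (adjusted p = 0.0525 in the same edgeR test), which it passed in 5 other fits, with adjusted p = 0.0197 to 0.0492, and without prt6-1 replicate 4 (0.0152) or prt6-1erfvii replicate 2 (0.0251).

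PHB, with PHV the best known determinant of the upper leaf side, had 55.1, 46.2, 46.0 and 50.4 CPM in prt6-1erfvii, 48.8, 50.6, 53.1 and 51.4 CPM in prt6-1, and 49.2, 49.6, 50.2 and 51.1 CPM in Col-0. The prt6-1erfvii libraries fell on both sides of the other genotypes. The log2 fold change was -0.03 (95% interval -0.18 to 0.12) against prt6-1 and -0.02 (-0.14 to 0.11) against Col-0, intervals that leave out a decrease of the size found for REV, CNA and HB8. Between prt6-1 and Col-0 the 5 HD-ZIP III differences lay between -0.07 and 0.03, and the interval furthest from 0 ended at -0.22.

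**Figure D3:**
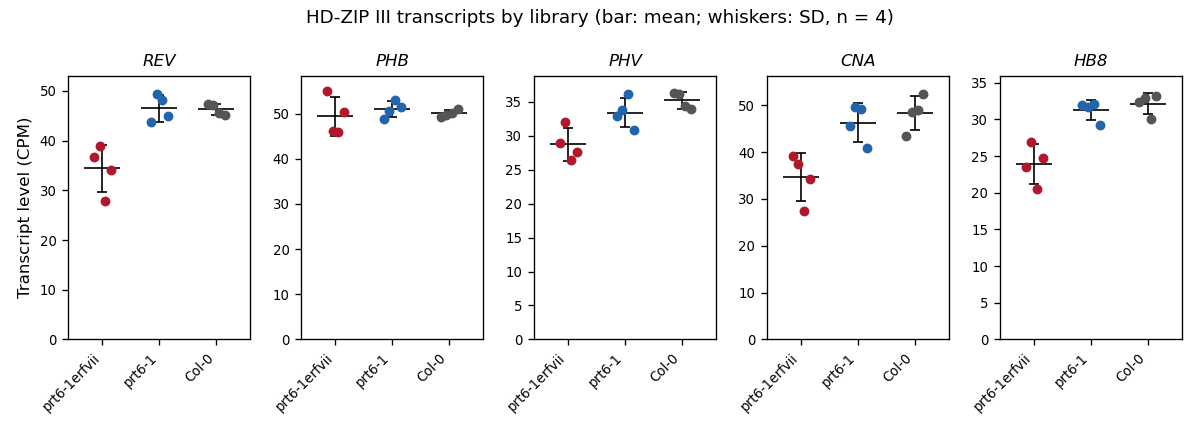
Transcript level in CPM (y axis, from 0, a separate scale for each gene) of the 5 HD-ZIP III genes in every library of prt6-1erfvii, prt6-1 and Col-0 (x axis), with the mean as a bar and the SD as whiskers (n = 4). REV, CNA and HB8 are lower in all 4 prt6-1erfvii libraries than in any other, and PHB overlaps between genotypes.

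The summed HD-ZIP III level was 45.1 to 55.5 RPKM in prt6-1erfvii, 59.5 to 66.0 RPKM in prt6-1 and 63.0 to 64.9 RPKM in Col-0, and PHB made up 26.7 to 32.4%, 24.9 to 27.5% and 24.4 to 25.3% of it. Whether the HD-ZIP III genes changed unequally was examined within libraries, where the scaling between libraries cancels, as the log2 ratio of the counts of 2 genes. This examination was added after the values had been seen. The REV to PHB ratio averaged -0.53 ± 0.20 in prt6-1erfvii, -0.13 ± 0.07 in prt6-1 and -0.11 ± 0.06 in Col-0 (log2, SD, n = 4 each). Neither comparison of prt6-1erfvii overlapped for this pair, which gives the smallest p that a two-sided exact permutation test of 4 against 4 libraries allows, 0.0286. Over the 30 tests of 10 pairs in 3 comparisons, that exact p becomes 0.143 after Benjamini-Hochberg adjustment. With this smallest p and so many tests, 4 libraries a genotype could hardly pass, so neither an unequal nor an equal change is shown. The PHB to PHV ratio overlapped between genotypes in each comparison. The same exact p was reached by REV to PHV in both comparisons of prt6-1erfvii, and by PHB to CNA and PHB to HB8 against Col-0.

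Across the 12 libraries, REV, PHV, CNA and HB8 varied together, with Pearson's r of 0.906 to 0.962 over their 6 pairs (log2 CPM). PHB correlated with them at 0.422 to 0.630, ZPR genes with HD-ZIP III genes at -0.09 to 0.57, and ZPR genes among themselves at -0.10 to 0.29. These correlations are a description over libraries of 3 genotypes and share the difference between genotypes and each library's depth. The genes most like ZPR2 over the same 12 libraries, among 15436 with a mean of at least 5 CPM, were XK-2 (AT5G49650, r = 0.906), AT1G10380 (0.857), C/VIF1 (AT1G47960, 0.848), AT1G31150 (0.840) and AT5G12040 (0.834). Those most like REV were AT4G20430 (0.984), AT1G80280 (0.984), AT1G53070 (0.982), ANK1 (AT5G02620, 0.977) and AT2G23950 (0.976). Both sets were picked as the highest of so many correlations over only 12 libraries, and they were not tested. ZPR2 had only 6 to 24 counts in a library.

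The miR165 and miR166 precursors themselves were barely read. Of the 9 precursor genes, 0 passed the filter on low counts, and their summed level was 0.214 to 0.519 CPM in prt6-1erfvii, 0.283 to 0.799 CPM in prt6-1 and 0.174 to 0.748 CPM in Col-0. Poly(A) libraries do not measure the mature miRNAs. Of 8 genes of the miRNA machinery, 1 passed in prt6-1erfvii vs prt6-1, SQN, a cyclophilin that assists AGO1, at -0.28 (SE 0.09), and 1 in prt6-1erfvii vs Col-0, AGO10, the Argonaute that sequesters miR165 and miR166, at -0.21 (SE 0.08). Their adjusted p was 0.0335 and 0.0352 in the quasi-likelihood test of edgeR (Benjamini-Hochberg), and AGO10 lost its call in DESeq2 (0.0515). AGO10 had 35.1 to 48.2 CPM in prt6-1erfvii and 43.7 to 51.4 CPM in Col-0, ranges that overlap.

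The genes that act with or against HD-ZIP III in leaf polarity moved in different directions in prt6-1erfvii, and none of those listed was called in prt6-1 vs Col-0. The counts of calls in this and the other lists stand beside 16.6% of all genes called higher and 14.7% lower against prt6-1, and 18.5% higher and 18.7% lower against Col-0. Of the YABBY genes, which specify the lower leaf side, 4 of 6 were tested, and 3 were higher in prt6-1erfvii than in prt6-1. FIL had 25.2 to 31.5 CPM in prt6-1erfvii and 18.8 to 23.6 CPM in prt6-1, a log2 fold change of 0.37 (SE 0.09; edgeR, Benjamini-Hochberg adjusted p = 0.00358). YAB2 rose by 0.36 (SE 0.10) and YAB3, named after its values were seen, by 0.32 (SE 0.08), each without overlap between the libraries. Against Col-0 only YAB2 among the 4 tested was called, at 0.24 (SE 0.09), and FIL had 23.5 to 25.6 CPM in Col-0, which overlaps prt6-1erfvii. The median over the 4 YABBY genes was 0.34 against prt6-1 and 0.16 against Col-0.

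KANADI genes, the other determinants of the lower leaf side, gave 0 calls of 4 against prt6-1 and 1 against Col-0, KAN1 at 0.27 (SE 0.10), a call lost in one fit over the 12 libraries (edgeR adjusted p = 0.0919). The other KANADI genes were not called and had lower means in prt6-1erfvii than in Col-0. These means were 6.66 and 7.69 CPM for KAN2, 4.55 and 4.82 CPM for KAN3, and 1.57 and 1.66 CPM for KAN4. The median log2 fold change of the 4 genes against Col-0 was -0.09. Against prt6-1, KAN4 was at -0.58 (SE 0.23). AS1, which with AS2 promotes the upper leaf side, was lower in prt6-1erfvii by -0.32 (SE 0.07) against prt6-1 and -0.38 (SE 0.06) against Col-0, with adjusted p = 0.00141 and 2.4e-05 in the quasi-likelihood test of edgeR (Benjamini-Hochberg). Its levels were 51.6 to 57.4 CPM in prt6-1erfvii, 62.6 to 73.9 CPM in prt6-1 and 64.0 to 75.9 CPM in Col-0. AS2 was called against Col-0 at -0.46 (SE 0.17), though not in DESeq2 (adjusted p = 0.0525), and ARF3 and ARF4 in no comparison.

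HD-ZIP II genes, which include direct targets and partners of HD-ZIP III, gave 2 higher calls of 10 against prt6-1 and 2 higher and 1 lower against Col-0, close to the shares of all genes (16.6% higher against prt6-1, 18.5% higher and 18.7% lower against Col-0). HAT22 was higher by 0.35 (SE 0.09) and 0.38 (SE 0.07), HAT2 by 0.25 (SE 0.09) and 0.34 (SE 0.08), against prt6-1 and Col-0, and HAT14 was lower against Col-0 at -0.45 (SE 0.16). The HAT2 difference from prt6-1 did not pass in DESeq2 (adjusted p = 0.0537). TAA1, an enzyme of auxin synthesis and a reported REV target, was lower at -0.29 (SE 0.08) against prt6-1 and -0.24 (SE 0.09) against Col-0, the second call lost in DESeq2 (adjusted p = 0.0538). YUC5, the next enzyme of that route and also a reported target, was higher against Col-0 at 0.57 (SE 0.19). DRN and DRNL, which bind HD-ZIP III proteins, had too few counts to be tested.

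**Figure D4:**
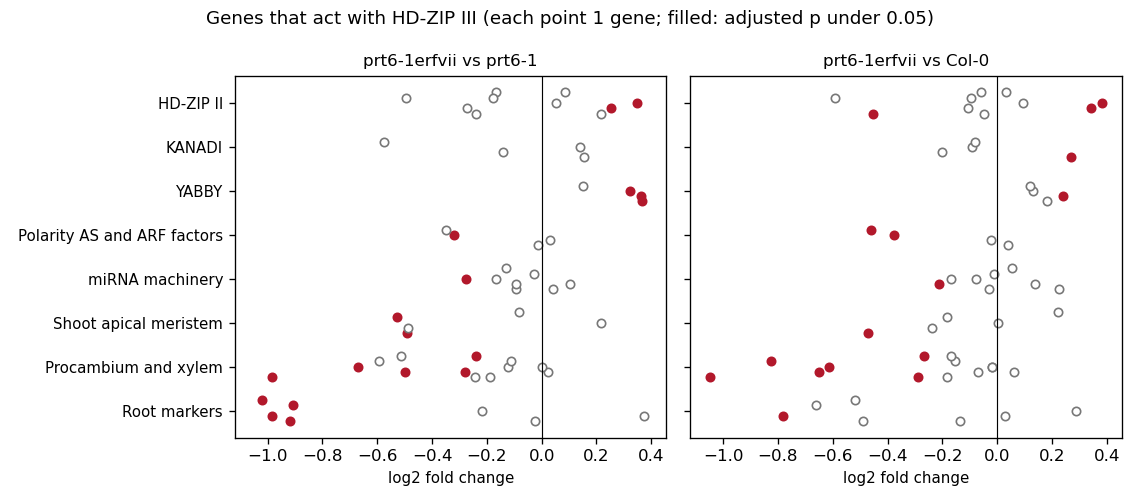
Log2 fold change (x axis) of each tested gene in 8 lists (rows) of genes that act with HD-ZIP III or mark the tissues they pattern, for prt6-1erfvii vs prt6-1 and prt6-1erfvii vs Col-0; filled red points have an adjusted p under 0.05 in edgeR's quasi-likelihood test. The called YABBY genes lie right of 0, and the called procambium, meristem and root genes lie left of it.

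Some markers of the tissues that HD-ZIP III genes pattern were lower in prt6-1erfvii. Of 13 procambium and xylem genes, 5 were lower and 0 higher against prt6-1, and 6 were lower and 0 higher against Col-0; of all genes tested, 14.7% were called lower and 31.3% in either direction against prt6-1, and 18.7% and 37.2% against Col-0. WOX4, a homeobox gene of the cambium, had 1.33 to 2.17 CPM in prt6-1erfvii, 2.68 to 3.85 CPM in prt6-1 and 2.95 to 4.59 CPM in Col-0, and no library of prt6-1erfvii reached the others. It was lower by -0.98 (SE 0.20) against prt6-1 and -1.05 (SE 0.21) against Col-0, with adjusted p = 0.000987 and 0.000306 in the quasi-likelihood test of edgeR (Benjamini-Hochberg). TMO5, which drives procambial divisions, was at -0.67 (SE 0.09) against prt6-1 and VND6, a regulator of xylem vessels, at -0.83 (SE 0.32) against Col-0, a call lost in DESeq2 (adjusted p = 0.0572). The other calls, named after their values were seen, were PXY, LHW and XCP1 against prt6-1 and PXY, TMO5, ACL5 and LHW against Col-0, at -0.24 to -0.65. The 8 genes not called against prt6-1, also named after their values were seen, lay between -0.59 (VND6) and 0.02 (CESA4). Among them were the xylem genes XCP2 at 0.002, CESA7 at -0.12 and CESA8 at -0.11. The list summed to 248 to 269 CPM in prt6-1erfvii, 294 to 308 CPM in prt6-1 and 282 to 312 CPM in Col-0, ranges that leave prt6-1erfvii apart.

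Of 7 genes of the shoot apical meristem, 5 were tested. CLV1, the receptor kinase of the stem cell circuit, was lower in prt6-1erfvii at -0.49 (SE 0.07) against prt6-1 and -0.47 (SE 0.06) against Col-0, and no other gene of the list was called against Col-0. KNAT1, a homeobox gene of the meristem, was lower against prt6-1 at -0.53 (SE 0.13), but against Col-0 it was at -0.18 (SE 0.12) and not called. In prt6-1 vs Col-0, KNAT1 was at 0.36 (SE 0.10), with libraries that did not overlap and an adjusted p of 0.0595 in edgeR and 0.0404 in DESeq2. STM, which keeps meristem cells undifferentiated, was at -0.08 (SE 0.17) and 0.22 (SE 0.19) and was not called. CUC1 and CUC2, named after their values were seen, were at -0.49 (SE 0.38) and 0.22 (SE 0.34) against prt6-1 and not called. The list summed to 52.7 to 59.1 CPM in prt6-1erfvii, 73.9 to 86.7 CPM in prt6-1 and 69.9 to 78.6 CPM in Col-0. Most of this sum is CLV1, with means of 41.7, 59.2 and 57.8 CPM, so it does not describe the list as a whole.

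Root markers gave 4 lower calls of 7 against prt6-1, where 14.7% of all genes were called lower, led by PLT2 at -1.02 (SE 0.34) and EXPA7 at -0.98 (SE 0.14), with PLT1 and RHD6 named after their values were seen, and 1 lower call against Col-0 (18.7% of all genes), EXPA7 at -0.78 (SE 0.16). The root markers not called in prt6-1erfvii vs prt6-1, named after their values were seen, were PIN2 at -0.22 (SE 0.11), WOX5 at 0.37 (SE 0.35) and CASP1 at -0.02 (SE 0.14). PLT2 had only 7 to 24 counts in prt6-1erfvii and 22 to 46 in prt6-1. PIN2 was higher in prt6-1 than in Col-0 at 0.52 (SE 0.11). The root list summed to 46.4 to 54.2 CPM in prt6-1erfvii, 52.2 to 73.2 CPM in prt6-1 and 44.4 to 58.2 CPM in Col-0, which overlap. SHR, a root radial pattern gene upstream of miR165 and miR166, was lower at -0.30 (SE 0.11) against prt6-1 and -0.40 (SE 0.09) against Col-0, and SCR was higher against Col-0 at 0.18 (SE 0.06). In the epidermal HD-ZIP IV pair, PDF2 was called against Col-0 at -0.15 (SE 0.06), though not in DESeq2 (adjusted p = 0.0611). ATML1, the other gene of the pair, was called in no comparison. Its mean was 99.5 CPM in prt6-1erfvii and 98.9 CPM in Col-0. Against prt6-1, ATML1 was at 0.14 (SE 0.07) and PDF2 at -0.15 (SE 0.07). The phloem markers SUC2 and APL were called in no comparison. Of the green tissue markers, CAB1 and GUN4 were lower in prt6-1 than in Col-0 at -0.26 (SE 0.05) and -0.29 (SE 0.06), GUN4 was higher in prt6-1erfvii than in prt6-1 at 0.19 (SE 0.07), and CAB1 was lower in prt6-1erfvii than in Col-0 at -0.20 (SE 0.06). RBCS1A, the other green tissue marker, was called in no comparison. Its means were 15145 CPM in prt6-1erfvii, 14045 CPM in prt6-1 and 14673 CPM in Col-0. Of the 3 stomatal lineage markers, TMM was higher in prt6-1erfvii than in prt6-1 at 0.32 (SE 0.09), and none was called against Col-0. SPCH and FAMA were called in no comparison. Their means in prt6-1erfvii and prt6-1 were 9.11 and 9.46 CPM for SPCH, and 15.5 and 13.9 CPM for FAMA. What part the share of vascular, meristem or root tissue had in the HD-ZIP III differences was not tested.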

How the data were processed

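Reads were trimmed (skewer) and aligned to TAIR10 (HISAT2 2.1.0) by the authors, who retained uniquely mapped reads and summarised them over genes in featureCounts 1.6.0. The deposited values are raw counts of 37885 genes in 12 libraries. The strand setting and annotation version are not given in the sources used here.

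The 8 libraries of each comparison were fitted in edgeR 4.0.16 under R 4.3.3 (TMM, filterByExpr, robust quasi-likelihood test, Benjamini-Hochberg, threshold 0.05). CPM used TMM factors over 12 libraries, and RPKM the union of exons in RefSeq TAIR10.1, in which 37882 identifiers matched and from which coordinates and sequences were read; the counts hold no coordinates. The scripts were tested on simulated data. Sequences and figures used Python 3.11.15. Counting error is only part of the spread between the 4 biological replicates. The members and the lists of associated genes were chosen with earlier results of these data known. All members are named. Of each list, genes called in prt6-1 vs Col-0 are named, with the 2 largest calls in each direction in the other comparisons. Lists of 4 genes or fewer are named whole, in part after their values were seen. The 5 genes most like ZPR2 and REV were taken by Pearson correlation of log2 CPM (prior count 2). Alternatives were DESeq2 1.42.0, RLE size factors, a fit over all 12 libraries, an absent filter or one at a mean of 10 counts, the replicate number as a block, leaving out each replicate and, added after seeing the data, an offset per library from a loess (span 0.5) on GC content and gene length.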

Additional observations from a re-analysis of the deposited data

Results flagged for a closer look

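In each of 27 sets of 4 libraries (9 members in 3 genotypes), the highest and lowest library were compared with the others by Dixon's ratio, and 2 sets held a library far from the rest; chance gives about 1 in 20. ZPR4 in prt6-1erfvii replicate 1 had 1.74 CPM, above the other 3 libraries of that genotype at 1.66 to 1.67 CPM, a set with a very small spread. HB8 in replicate 4 of the libraries labelled prt6-1 had 29.2 CPM, below the others at 31.7 to 32.1 CPM. Without that library, HB8 remained lower in prt6-1erfvii than in prt6-1.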

How the results depend on the processing

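REV, CNA and HB8 kept their calls in prt6-1erfvii vs prt6-1 and vs Col-0, and PHV vs Col-0, under every alternative run, including each left-out replicate. In prt6-1 vs Col-0, ZPR1 was the 1 member called by DESeq2 and by one fit over 12 libraries (adjusted p = 0.0494 and 0.0493), against 0 in the edgeR fit of 8 libraries. With the offset for GC content and gene length that comparison called 750 genes instead of 455, and REV and PHB, which were not called, changed sign to -0.0123 and -0.00866.

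Leaving out a replicate gave 281 (without Col-0 replicate 2) to 1231 genes (without prt6-1 replicate 4) in prt6-1 vs Col-0, 0 to 1 members and 0 to 1 genes of the pathway lists. Pathway genes called in prt6-1erfvii vs Col-0 ranged over 6 to 11, against 13 with all libraries; there were 7 without Col-0 replicate 1, and 6 without Col-0 replicate 2 or prt6-1erfvii replicate 4. Signs turned only for uncalled changes: in prt6-1 vs Col-0, ZPR2 ranged over -0.256 to 0.0639, ZPR3 over -0.0374 to 0.382, ZPR4 over -0.0357 to 0.193 and REV over -0.0221 to 0.0349; in prt6-1erfvii vs Col-0, ZPR3 over -0.149 to 0.268 and PHB over -0.0701 to 0.0155; and in prt6-1erfvii vs prt6-1, PHB over -0.0876 to 0.000879. Among the listed genes, calls held in 2 or 3 of 8 left-out fits for SQN, SHR, HAT2, GUN4 and PLT2 in prt6-1erfvii vs prt6-1, KAN1, AS2, AGO10, VND6 and PDF2 in prt6-1erfvii vs Col-0, and PIN2 in prt6-1 vs Col-0; those of YAB2, TAA1, HAT14, YUC5 and SCR vs Col-0, and of PLT1 and TMM vs prt6-1, held in 4 to 7.

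Same-numbered replicates deviated together little (r = -0.08 to 0.16, beside -0.16 to 0.12 for other numbers), so the numbers were not used as a pairing. In prt6-1erfvii vs Col-0, 2 of the prt6-1erfvii replicates had their highest r with their own number. So few replicates cannot exclude a pairing. With a replicate block the calls were 540, 5721 and 8406 genes and 0, 3 and 5 members in prt6-1 vs Col-0, prt6-1erfvii vs prt6-1 and prt6-1erfvii vs Col-0, and 6 instead of 9 pathway genes in the second. At 6 to 24 counts per library, depth limits what can be said of ZPR2.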
